A study of Homo sapiens with 6 samples.

Results

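The genes described are 9 members of the cytokine receptor and JAK-STAT pathway of lymphoid cells, namely the receptors IL7R and FLT3, the kinases JAK1, JAK2 and TYK2, the transcription factors STAT3, STAT5A and STAT5B, and the inhibitor SOCS1. They were taken by symbol and Ensembl identifier, and all 9 were found among the 57905 genes of the count table. RNA-SEQ was run on NALM6 cells, a human B-ALL line with the features of B cell precursors, with 3 libraries from cells given the solvent DMSO and 3 from cells given 500 nM of THZ1, each for 24 h. THZ1 is a covalent inhibitor of CDK7, a kinase that takes part in the start of transcription and in cell cycle control. The libraries all come from 1 cell line, at 1 dose and 1 time.

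Cytokine receptors of this family have no kinase of their own. When a ligand such as interleukin-7 brings the receptor chains together, the JAK kinases bound to the chains phosphorylate each other and the receptor, and STAT proteins that dock there are phosphorylated, enter the nucleus and switch on target genes. Precursor B cells can receive such a signal through IL7R, which pairs with the common gamma chain IL2RG and works through JAK1, JAK3 and STAT5. SOCS proteins are made in response to STATs and shut the kinases off again, whereas FLT3 is a receptor tyrosine kinase of early lymphoid and myeloid progenitors that can also activate STAT5.

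IL7R RNA fell 16.5-fold with THZ1 and SOCS1 RNA rose 60.1-fold. FLT3, STAT5A and STAT5B fell as well, while JAK1, TYK2 and STAT3 rose by about the same modest factor, between 1.48-fold and 1.58-fold. JAK2 was slightly lower and lay close to the threshold. All 9 members passed the filter on low counts, FLT3 only through its DMSO-treated and SOCS1 only through its THZ1-treated libraries. At a Benjamini-Hochberg adjusted p-value below 0.05 in edgeR's quasi-likelihood test 5 were lower, 4 were higher and 0 were not called. Such calls were common, since 41.1% of the 16622 genes tested were called lower and 43.5% higher. The treatments did not overlap for any of the 9 members, as for 84.7% of the genes tested. When the log2 fold change also had to reach 1.5 in either direction, 4 members were lower and 1 was higher, against 12.9% and 24.6% of the genes tested. The median log2 fold change was −0.38 over the 9 members and 0.03 over all genes tested.

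Promoter sequences are shown for 4 members. IL7R fell most and SOCS1 rose most, and STAT5B and STAT3, which moved in opposite directions, lie close together on chromosome 17 with most of STAT5A between them. These 4 were picked with their values known. Each window runs from 250 bases before to 50 bases after a start site of RefSeq (table on GRCh38.p14), and each matched GRCh37 exactly once, at chr5:35856743-35857042 on the plus strand for IL7R, chr16:11350012-11350311 on the minus strand for SOCS1, chr17:40428360-40428659 on the minus strand for STAT5B and chr17:40540411-40540710 on the minus strand for STAT3. They are written 5′ to 3′ on the strand of the gene, and capitals mark matches on either strand to the motifs searched.
IL7R: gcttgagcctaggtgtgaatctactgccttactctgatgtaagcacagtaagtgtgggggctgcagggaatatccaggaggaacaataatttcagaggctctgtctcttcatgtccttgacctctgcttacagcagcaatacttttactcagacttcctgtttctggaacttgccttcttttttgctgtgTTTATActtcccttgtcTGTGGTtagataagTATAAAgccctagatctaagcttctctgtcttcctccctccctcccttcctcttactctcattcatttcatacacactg
SOCS1: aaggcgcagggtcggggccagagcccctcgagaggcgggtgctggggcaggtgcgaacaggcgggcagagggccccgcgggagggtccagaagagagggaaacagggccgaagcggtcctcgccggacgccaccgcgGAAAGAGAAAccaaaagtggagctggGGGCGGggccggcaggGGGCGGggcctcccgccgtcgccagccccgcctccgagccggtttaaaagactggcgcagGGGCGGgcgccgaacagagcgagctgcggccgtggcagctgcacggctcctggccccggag
STAT5B: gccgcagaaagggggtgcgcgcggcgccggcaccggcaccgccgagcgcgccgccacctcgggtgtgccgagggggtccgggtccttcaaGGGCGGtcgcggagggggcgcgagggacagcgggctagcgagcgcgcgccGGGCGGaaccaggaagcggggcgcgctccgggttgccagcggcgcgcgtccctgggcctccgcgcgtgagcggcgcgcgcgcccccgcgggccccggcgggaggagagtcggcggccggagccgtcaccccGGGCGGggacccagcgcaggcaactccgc
STAT3: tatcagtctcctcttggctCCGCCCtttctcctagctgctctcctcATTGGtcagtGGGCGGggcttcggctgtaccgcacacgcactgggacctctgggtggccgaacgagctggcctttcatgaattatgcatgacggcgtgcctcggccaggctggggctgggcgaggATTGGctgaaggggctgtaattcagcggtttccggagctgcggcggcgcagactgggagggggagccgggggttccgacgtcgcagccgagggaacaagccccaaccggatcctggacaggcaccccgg

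The IL7R window was the poorest in G and C of the 4, with 44.3%, and its capitals are 2 matches to TATAAA, at positions −60 and −29 from the start site, and 1 match to TGTGGT, a core bound by RUNX factors, at −43. TATAAA was present in 11.6% and TGTGGT in 13.1% of 34796 distinct RefSeq windows of the same length. The SOCS1 window had 74.0% G and C, a match at −113 to GAAA, 2 further bases and GAAA again, and 3 matches to the GC box GGGCGG. The paired GAAA letters, as in an interferon-responsive element, were present in 3.57% of all windows and GGGCGG in 44.9%. The STAT5B window, with 82.0% G and C, held 3 GC boxes, and the STAT3 window, with 65.3%, held 2 GC boxes and 2 matches to CCAAT, a motif in 34.6% of all windows. The letters TTCNNNGAA, which STAT dimers bind, were present in 7.67% of all windows and in none of the windows of the 9 members. A match is only a description of the letters in these windows.

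The depth was 11015480 to 11164840 counts on genes in the DMSO-treated libraries and 7876402 to 8314306 in the THZ1-treated libraries. Counts were scaled by TMM and are given as CPM, a measure relative to the other RNA of the same library. In bulk RNA, fewer cells expressing a gene and less RNA per cell cannot be told apart. The summed level of 12 markers of B cell precursors was 4520 to 4707 CPM in DMSO-treated and 2480 to 2572 CPM in THZ1-treated libraries, with 9 markers lower and 2 higher. The 5 T cell markers summed to at most 0.969 CPM, with CD8A at 0 in every library. The 5 myeloid markers summed to 3.88 to 4.63 CPM and 18.5 to 20.1 CPM, with 1 lower and 2 higher, and the 3 stroma markers to 11.3 to 12.8 CPM and 18.5 to 20.6 CPM, with 1 lower and 1 higher. The 2 higher myeloid markers, CD14 and CSF1R, passed the filter on low counts only through their THZ1-treated libraries. A rise was thus built into their selection. LYZ, the 1 lower, needed its DMSO-treated libraries to pass, and nothing is read from the calls of the myeloid markers. The part of all these markers in the changes of the members was not tested.

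IL7R encodes the alpha chain that binds interleukin-7 and also serves the receptor of TSLP (ENSG00000168685, chr5:35852797-35879705 on GRCh37, 8 exons in the canonical transcript). Its level was 327, 370.1 and 304 CPM in the DMSO-treated libraries, above that of 97.7% of the genes tested. In the THZ1-treated libraries it was 18.9, 22.0 and 19.7 CPM. The 3 THZ1-treated libraries lay close together, far under every DMSO-treated library. From 334 ± 33.7 to 20.2 ± 1.61 CPM (SD, n = 3 each), the log2 fold change was −4.05 (SE 0.09, adjusted p = 1.2e-26 by edgeR), and only 0.505% of the genes tested had a lower one. It stayed between −4.13 and −3.99 when any 1 library was left out.

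FLT3 (ENSG00000122025, chr13:28577411-28674729) was rare in these cells, with 27, 24 and 47 counts in the DMSO-treated libraries and 3, 3 and 1 counts in the THZ1-treated libraries. Every THZ1-treated library was at or under 3 counts, the number taken as the floor of detection. The summed counts of 98 and 7 gave a depth-adjusted ratio of 8.64 in favour of DMSO (exact 95% interval 4.04 to 22.1, for counting error only). In CPM, FLT3 was 2.72 ± 1.09 and 0.314 ± 0.157, and edgeR gave a fitted log2 fold change of −3.06 (SE 0.50, adjusted p = 1.6e-06). The size is poorly fixed, with fitted values from −3.90 to −1.73 under the alternatives and a fall of 32.6-fold in the deposited FPKM values against 8.35-fold in the fit. Low FPKM values were not alike between treatments. The ligand gene THPO, with 0 counts in every DMSO-treated library, held 0.260, 0.251 and 0.275 FPKM there. FLT3 with THZ1 held less, at 0.0872, 0.114 and 0.0438 FPKM, so its FPKM fold is no second measure of the size. KIT, the close relative of FLT3 that binds stem cell factor, was looked at after its values were seen, and it was also lower, with 98, 95 and 72 counts against 5, 4 and 7 (log2 fold change −3.33, adjusted p = 2.8e-11 by edgeR). Like FLT3, KIT passed the filter on low counts only through its DMSO-treated libraries. A fall was thus built into the selection of both genes, and KIT is no separate support for the fall of FLT3.

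**Figure D1:**
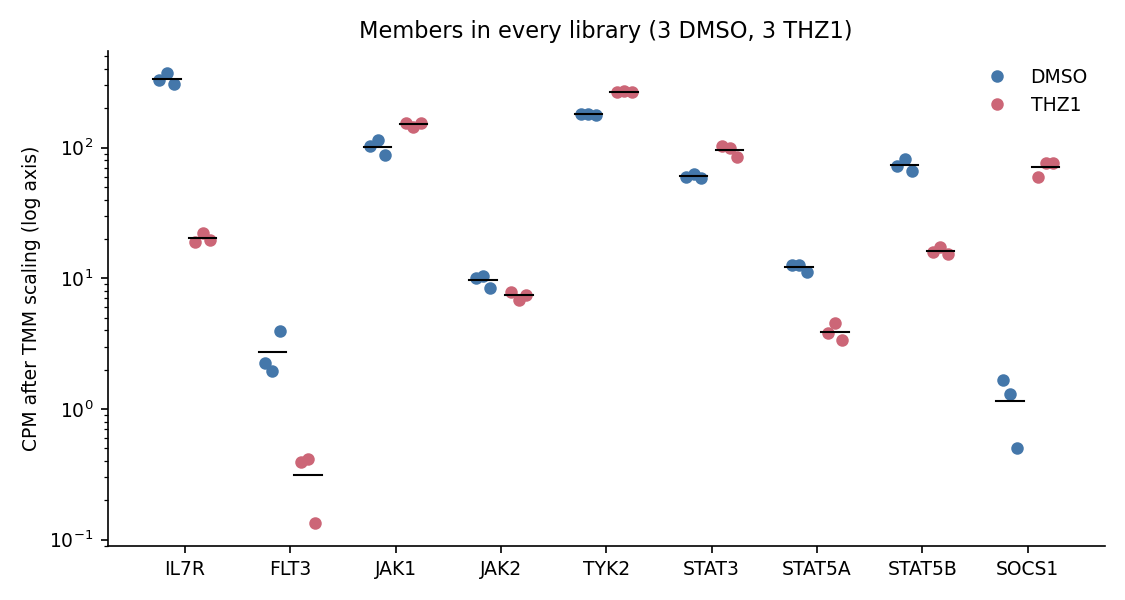
Level of each of the 9 members in every library, in CPM on a log axis, with DMSO-treated and THZ1-treated libraries as separate points and a line at the mean of each treatment. IL7R sits between 304 and 370.1 CPM with DMSO and between 18.9 and 22.0 CPM with THZ1, and SOCS1 runs the other way, from 0.506 to 1.65 CPM up to 59.6 to 76.7 CPM.

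The kinases moved little in comparison with the receptors. JAK1, which serves IL7R and many other cytokine receptors (ENSG00000162434, chr1:65298906-65533437), was at 102, 114 and 87.3 CPM in the DMSO-treated libraries and at 155, 144 and 154 CPM in the THZ1-treated libraries. TYK2, the kinase of interferon and interleukin-12 family receptors (ENSG00000105397, chr19:10461209-10491284), was at 181, 179.8 and 178 CPM and at 264, 271 and 264 CPM. All THZ1-treated libraries were above all DMSO-treated libraries for both genes. The log2 fold change was 0.57 (SE 0.08, adjusted p = 1.3e-07) for JAK1 and 0.57 (SE 0.07, adjusted p = 2.4e-09) for TYK2 by edgeR. These rises depend in size on the scaling, since library sizes alone shifted the median gene by −0.25 and gave 0.32 for both, still called. Leaving out 1 library at a time gave 0.46 to 0.65 for JAK1 and 0.54 to 0.57 for TYK2.

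JAK2, which serves the receptors of erythropoietin, thrombopoietin and TSLP (ENSG00000096968, chr9:4984390-5129948), was the only member near the threshold. Its 122, 128 and 99 counts with DMSO and 60, 49 and 56 with THZ1 corresponded to 10.1, 10.5 and 8.35 CPM and to 7.89, 6.78 and 7.49 CPM. The lowest DMSO-treated library was just above the highest THZ1-treated library. The log2 fold change of −0.38 (SE 0.17) had an adjusted p of 0.0409 by edgeR. The call was lost in 9 of 15 alternatives, among them DESeq2 (adjusted p = 0.168), and by edgeR without DMSO replicate 1 (adjusted p = 0.0920), DMSO replicate 2 (0.0907), THZ1 replicate 2 (0.114) or THZ1 replicate 3 (0.0664). The size also differed between the deposited tables, with a fall of 1.30-fold in CPM and of 2.60-fold in FPKM.

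Within a library, the share of JAK2 in the counts of JAK1, JAK2 and TYK2 does not depend on scaling between libraries. It was 3.44%, 3.44% and 3.05% with DMSO and 1.85%, 1.61% and 1.76% with THZ1, a difference of −1.57 points without overlap (exact permutation test, two-sided, p = 0.1, which is the lowest value 3 against 3 can give). The share of JAK1 was 34.8%, 37.5% and 31.9% and then 36.2%, 34.1% and 36.2%, which overlapped (difference 0.79 points, exact permutation p = 0.7). The sign of the JAK1 difference turned to −0.65 points without DMSO replicate 3.

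**Figure D2:**
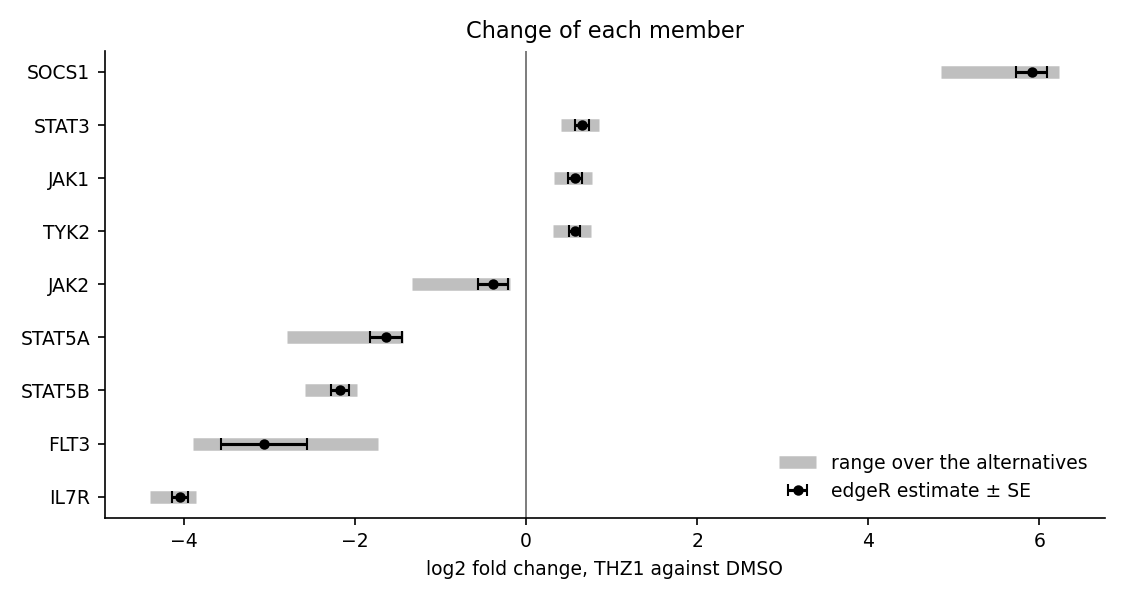
Log2 fold change of each member, THZ1 against DMSO, as a point with its SE, over a grey bar for the range across the alternatives. IL7R at −4.05 and SOCS1 at 5.91 form the ends, and JAK2 at −0.38 is the member nearest to 0.

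Of the STAT genes, both STAT5 genes fell while STAT3 rose. STAT5A and STAT5B are the paralogs that carry the interleukin-7 signal. STAT5B (ENSG00000173757, chr17:40351194-40440651) was at 71.7, 82.0 and 65.7 CPM with DMSO and at 15.9, 17.3 and 15.4 CPM with THZ1. STAT5A (ENSG00000126561, chr17:40439565-40463961) was at 12.7, 12.5 and 11.2 CPM and at 3.81, 4.57 and 3.34 CPM. Each THZ1-treated library was far under each DMSO-treated library. The log2 fold change was −2.17 (SE 0.11, adjusted p = 2.7e-18) for STAT5B and −1.64 (SE 0.19, adjusted p = 2.3e-09) for STAT5A by edgeR, which are falls of 4.52-fold and 3.11-fold. In the deposited FPKM values the falls were 6.13-fold and 7.47-fold.

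STAT3, which transmits interleukin-6 and interleukin-10 family signals (ENSG00000168610, chr17:40465342-40540558), was at 59.7, 62.9 and 58.6 CPM with DMSO and at 102, 99.4 and 84.5 CPM with THZ1. The treatments did not overlap. The log2 fold change was 0.66 (SE 0.08, adjusted p = 1.4e-08 by edgeR), with 0.60 to 0.73 when 1 library was left out. The 3 STAT genes lie side by side within 189365 bp of chromosome 17. STAT5A and STAT3 lie on opposite strands with their 3′ ends 1380 bp apart, whereas the 5′ end of STAT5A overlaps the annotated span of STAT5B, on the other strand, by 1087 bp. The overlap lies upstream of the RefSeq start of STAT5B shown above. No source used here gives the strand setting of the counting, so reads from overlapping exons could not be assigned to a strand. Of the 50-base words of their canonical transcripts, 507 of 3721 (13.6%) in STAT5A and 507 of 5030 (10.1%) in STAT5B are shared by the pair, and the values of the paralogs are uncertain to that extent.

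The share of STAT5B in the counts of both STAT5 genes was 84.9%, 86.7% and 85.4% with DMSO and 80.7%, 79.1% and 82.1% with THZ1, a difference of −5.05 points without overlap (two-sided exact permutation p = 0.1). The direction was not the same in the deposited FPKM values, where this share was 2.92 points higher with THZ1 (exact permutation p = 0.2). The balance between STAT3 and the STAT5 genes, chosen after the values were seen, moved much further. STAT3 made up 41.4%, 40.0% and 43.2% of the counts of the 3 genes with DMSO and 83.8%, 82.0% and 81.9% with THZ1 (exact permutation p = 0.1).

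**Figure D3:**
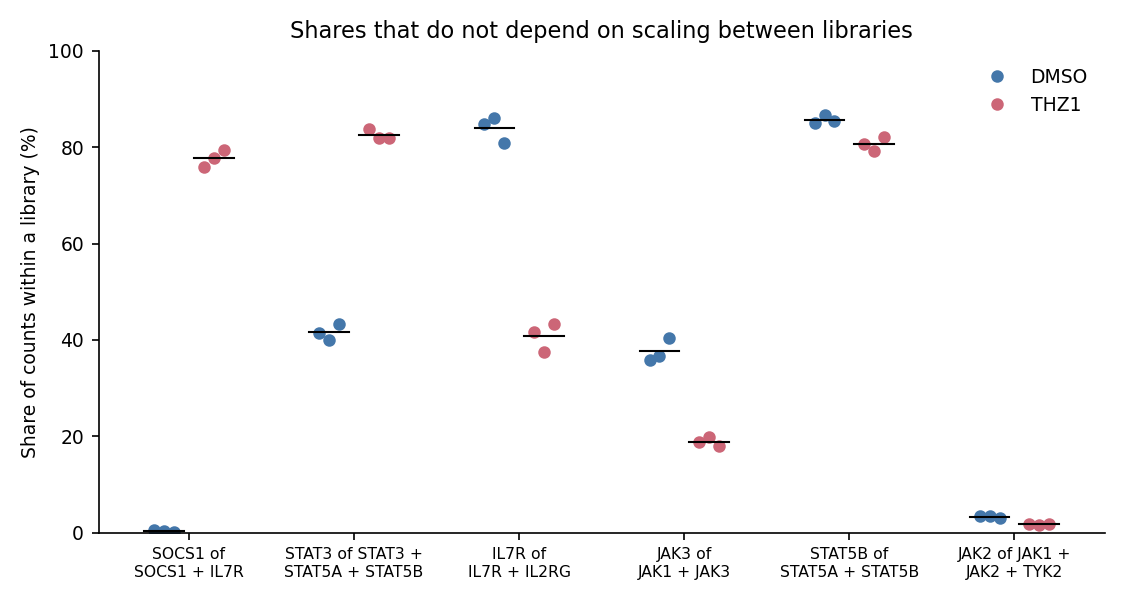
Shares of counts within each library, in percent, for groups of the members and their partners, with DMSO-treated and THZ1-treated libraries as separate points and a line at each mean. The share of STAT3 among STAT3, STAT5A and STAT5B lies at 40.0 to 43.2% with DMSO and at 81.9 to 83.8% with THZ1.

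SOCS1 binds and inhibits JAK kinases and is itself a target of STATs (ENSG00000185338, chr16:11348274-11350061). It had 20, 16 and 6 counts in the DMSO-treated libraries and 453, 554 and 566 counts in the THZ1-treated libraries. It was thus near the limit of detection without THZ1, and plainly expressed with it. In CPM, this was 1.65, 1.31 and 0.506 against 59.6, 76.7 and 75.7. SOCS1 passed the filter on low counts only through its THZ1-treated libraries, so that a rise was built into its selection. The log2 fold change was 5.91 (SE 0.18, adjusted p = 1.6e-23 by edgeR), above that of 96.0% of the genes tested, and the summed counts of 42 and 1573 gave a depth-adjusted ratio of 60.7 (exact 95% interval 44.7 to 84.5, for counting error only). DMSO replicate 3 was the lowest, and the range with 1 library left out was 5.54 to 6.23. In FPKM the rise was 38.7-fold.

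SOCS1 is a short gene of 1788 bp, and only 11.7% of the genes tested had a shorter span. It lies wholly within the span of RMI2, a gene of a DNA repair complex on the other strand. RMI2 went the opposite way, with 383, 356 and 409 counts against 87, 104 and 106 (log2 fold change −1.25, adjusted p = 7.6e-11 by edgeR). RMI2 was named here for its position, after its values were seen. Among the members that fell, the span was longer than that of 53.7% of the genes tested for STAT5A, 56.0% for IL7R, 84.1% for STAT5B, 85.5% for FLT3 and 91.7% for JAK2. Of the others that rose, it was longer than that of 59.1% for TYK2, 80.7% for STAT3 and 96.3% for JAK1.

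Levels of different genes were compared per length, in the FPKM values of the authors. With DMSO, IL7R was highest at 162 ± 27.2 FPKM (SD, n = 3), followed by TYK2 at 76.2 ± 2.62, STAT5B at 31.8 ± 3.67, JAK1 at 22.7 ± 2.77 and STAT3 at 19.4 ± 0.391 FPKM. JAK1 and STAT3 overlapped between libraries, so their order is not resolved. The order of STAT5B and JAK1 is not firm either. By counts per kilobase of merged exons JAK1 was above STAT5B, at 7.68 against 6.04 CPM per kilobase. STAT5A at 6.75 ± 0.282, JAK2 at 5.27 ± 0.359, FLT3 at 2.66 ± 0.915 and SOCS1 at 2.59 ± 1.01 FPKM followed, with the last pair overlapping. With THZ1 the order began with TYK2 at 101 ± 1.77 and SOCS1 at 100.3 ± 13.7 FPKM, which overlapped, and went on with JAK1 at 31.1 ± 1.56 and STAT3 at 28.0 ± 2.75 FPKM, which overlapped too. IL7R was then at 7.56 ± 0.714 FPKM, STAT5B at 5.18 ± 0.329, JAK2 at 2.03 ± 0.222, STAT5A at 0.904 ± 0.243 and FLT3 at 0.0817 ± 0.0355 FPKM. Thus IL7R went from the highest of the 9 to below STAT3, and SOCS1 from a level overlapping that of FLT3 to one overlapping that of TYK2.

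**Figure D4:**
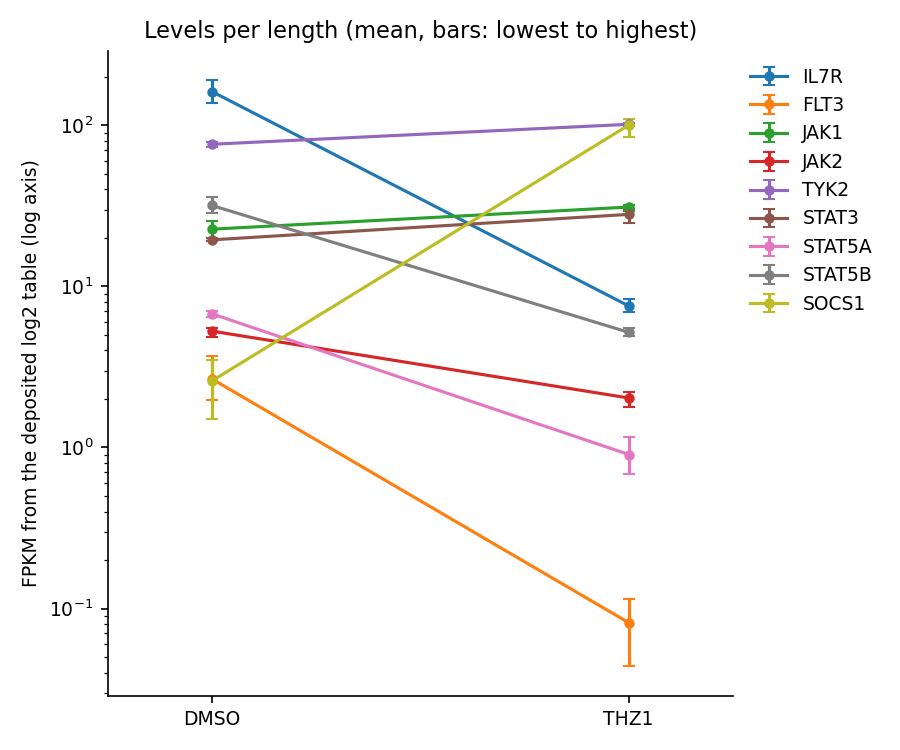
FPKM of each member on a log axis, with a point at the mean of each treatment, a bar from the lowest to the highest of its 3 libraries and a line joining the treatments. IL7R leads with DMSO at 137 to 191 FPKM, whereas TYK2 at 99.6 to 103 and SOCS1 at 84.5 to 109 FPKM lead with THZ1.

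Of the partners of IL7R, IL2RG and JAK3 were lower, whereas JAK1 was higher as given above. IL2RG, the common gamma chain, went from 63.5 ± 7.44 to 29.7 ± 6.07 CPM (SD, n = 3 each; log2 fold change −1.10, adjusted p = 1.4e-10 by edgeR). JAK3, the kinase bound to that chain, went from 60.9 ± 4.89 to 35.1 ± 1.12 CPM (−0.80, adjusted p = 2.3e-09 by edgeR). The share of IL7R in the counts of IL7R and IL2RG, a pair chosen after the values were seen, was 84.8%, 86.1% and 80.8% with DMSO and 41.6%, 37.5% and 43.2% with THZ1 (exact permutation p = 0.1). The ligands were hardly seen, with IL7 at 0 counts in all 6 libraries and TSLP at 1 count in 1 library. CRLF2, the other chain of the TSLP receptor, had at most 3 counts in any library, and FLT3LG, the ligand of FLT3, had 3, 4 and 0 counts and then 7, 6 and 14, too few to be tested.

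The other pathway genes were taken from 5 lists, with 117 symbols in all, of which 116 were in the table and 76 were tested, the members included. Of these 76 genes, 30 were lower, 37 were higher and 9 were not called, beside the 41.1% and 43.5% of all genes tested, with a median log2 fold change of 0.10. With the 9 members left out, 25 were lower, 33 higher and 9 not called. The balance turned with library sizes alone, to 38 lower and 33 higher of the whole set, and with limma on FPKM, to 36 lower and 24 higher. Of the receptors, 24 of 37 were tested, of which 11 were lower and 8 higher. Among the receptors that are not members and had a mean of at least 5 CPM, IL4R, the receptor chain of interleukin-4, was lowest, from 25.01 ± 2.03 to 6.23 ± 0.975 CPM (log2 fold change −2.003, adjusted p = 1.1e-13 by edgeR). EPOR, the erythropoietin receptor, was highest among the same genes, from 2.05 ± 0.656 to 16.1 ± 2.38 CPM (2.96, adjusted p = 3.9e-14 by edgeR).

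Among the 31 ligands 8 were tested and called higher. Most of them passed the filter on low counts only through the THZ1-treated libraries, so that a rise was built into their selection, and nothing is read from this count. In 4 of the 8, every DMSO-treated library was at or under 3 counts. IL23A, a subunit of interleukin-23, was the only ligand with a mean of at least 5 CPM, from 3.90 ± 0.202 to 9.72 ± 0.990 CPM (log2 fold change 1.31, adjusted p = 2.4e-07 by edgeR). Of 12 ligand genes no library held a count.

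Other STAT genes of the list were examined as well. STAT6, the factor of interleukin-4 signals, fell from 259.9 ± 8.20 to 108 ± 3.26 CPM (log2 fold change −1.27, adjusted p = 4.8e-17 by edgeR). STAT2, which transmits type I interferon signals, was at 62.6 ± 2.10 and 61.7 ± 5.87 CPM (−0.02, adjusted p = 0.836 by edgeR), with a sign that depends on the scaling, and with library sizes alone it was called lower (−0.27, adjusted p = 0.0055 by edgeR). STAT4 had at most 9 counts in any library and was not tested.

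Of the 22 inhibitors, 20 were tested, of which 8 were lower and 9 higher, with a median log2 fold change of −0.04. These counts lie near the shares over all genes tested, 41.1% lower and 43.5% higher. SH2B3, an adaptor that restrains JAK2 and receptor signals, rose from 42.9 ± 4.82 to 184 ± 17.02 CPM (2.10, adjusted p = 3.1e-20 by edgeR), the highest of this list with at least 5 CPM beside SOCS1. Within the same limit CBLB, a ubiquitin ligase for activated receptors, was the lowest, from 10.9 to 4.07 CPM (−1.41, adjusted p = 2.0e-07 by edgeR). The SOCS family was looked at after its values were seen. Besides SOCS1, SOCS2 rose from 107 ± 3.80 to 212 ± 9.11 CPM (0.99, adjusted p = 2.6e-14 by edgeR) and SOCS5 from 18.8 ± 1.16 to 42.4 ± 2.43 CPM (1.17, adjusted p = 6.8e-12 by edgeR), in the same direction and called under all 15 alternatives. CISH and SOCS6 were also higher, at 0.86 and 1.51, but each lost its call in 2 of the 15 alternatives. SOCS4 was at −0.12 (adjusted p = 0.214 by edgeR), and SOCS3 had counts of 0, 0 and 0 against 9, 0 and 2 and was not tested.

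Of the 22 STAT targets, 18 were tested, with 5 lower and 12 higher, beside 41.1% lower and 43.5% higher of all genes tested. Their median log2 fold change was 1.19. At least FOS and SOCS1 of the 12 called higher passed the filter on low counts only through their THZ1-treated libraries, so that a rise was built into their selection. Among those that are not members and had at least 5 CPM, FOS, an immediate early transcription factor, was highest, from 0.606 ± 0.327 to 134.9 ± 6.01 CPM (7.76, adjusted p = 4.6e-28 by edgeR), and MYC was lowest at −2.89. The kinases PIM1 and PIM2, known targets of STAT5, were picked after their values were seen and were higher at 1.59 and 1.46, while BCL2 and CCND3, an inhibitor of apoptosis and a cyclin of the early cell cycle, were lower at −1.60 and −2.12. Their relatives MCL1, BCL2L1 and CCND2 were higher at 1.64, 0.47 and 1.80 (all 7 called by edgeR). The rise of CCND2 is not firm, since its counts were low, with 14, 23 and 18 against 54, 26 and 39. It lost its call in 2 of the 15 alternatives and had the other sign in 2, down to −0.29. Its mean FPKM was slightly lower with THZ1, at 1.05 ± 0.535 against 1.21 ± 0.138 with DMSO.

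**Figure D5:**
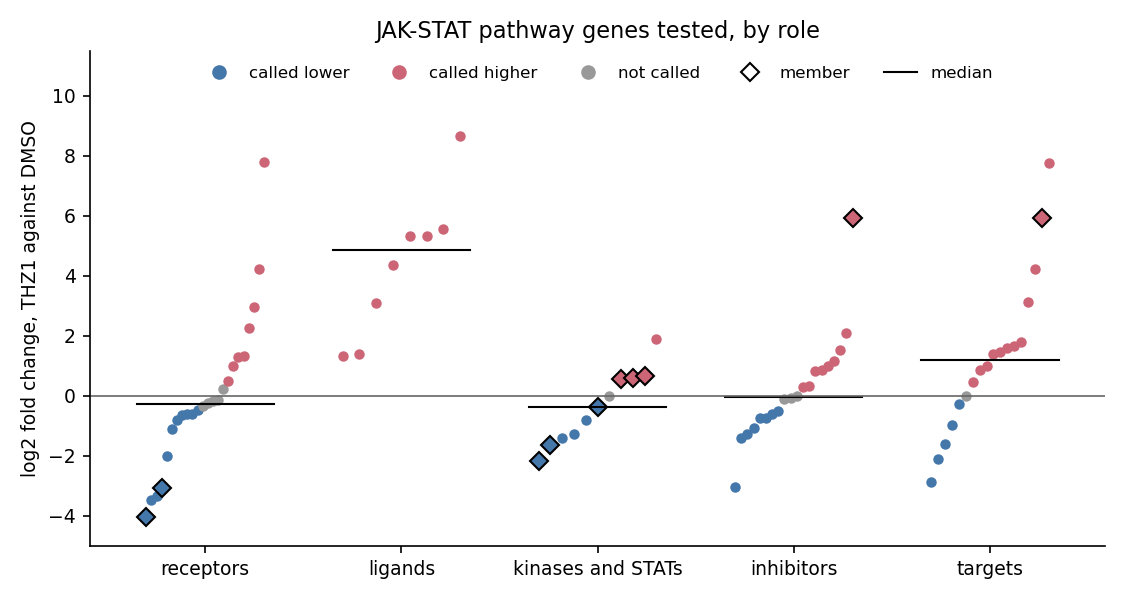
Log2 fold change of each tested gene in the 5 pathway lists, THZ1 against DMSO, with colours for genes called lower, called higher or not called, diamonds for the members and a line at the median of each list. The receptors and the kinases and STATs spread to both sides of 0 with medians of −0.29 and −0.38. Most ligands entered the plot only through their THZ1-treated libraries, so their position above 0 was set by the filter on low counts.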

How the data were processed

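Of the 6 libraries, raw counts for each gene were deposited by the authors, made with cutadapt, STAR on GRCh37 and htseq-count according to the methods and the labels. The annotation and the strand setting are not given in the sources used here. A second table holds FPKM by RSEM on a log2 scale, read here as log2(FPKM + 1) as deposited by the authors. Its sorted values differed by a median of 0.00150 to 0.00170 between libraries of a treatment and of 0.0870 to 0.0902 between treatments, and no source names a step that would make them alike. Some values recurred exactly, as for the marker IGLL1 at 3788.7 FPKM in DMSO replicates 1 and 2. The values within a treatment were thus not independent in their distribution. SDs, overlaps, calls and p-values from FPKM are therefore not a measure of ordinary spread between replicates. The tests, planned for linear FPKM, were kept, and the values were taken back to FPKM. The p-values, log2 fold changes and FDR values in that second table are the authors' own and were not used.

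Genes were filtered with edgeR's filterByExpr (minimum count 10, minimum total 15), scaled by TMM and compared by the two-sided quasi-likelihood test, adjusted by Benjamini-Hochberg over the 16622 genes tested. The SE of a log2 fold change is its size over the square root of F. A gene was called at an adjusted p below 0.05. Nothing says that the libraries came from separate cultures, so p-values measure only the spread between these samples. Replicates differed by more than sampling noise (chi-square per gene 1.81 to 9.35). Intervals and floors, set at 3 counts, cover counting error only.

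The members and the lists were chosen with earlier results of these data known. Named by rule were the 9 members, the highest and lowest called gene of each list with at least 5 CPM, the other JAK and STAT genes, and IL7, TSLP, CRLF2, IL2RG and FLT3LG. SOCS7 was not matched to a symbol. Some results are not reported here. Gene positions are from GENCODE on GRCh37. Shares were compared by exact permutation. As alternatives, a replicate block, DESeq2, other scalings (upper quartile, RLE, library sizes alone) and other filters (none, or 10 counts required of each library) were run, libraries were left out singly, a log2 fold threshold of 1.5 was added, and limma was run on FPKM of mean 0.1 or more with pseudocounts of 0.1 and 1. The pipeline was tested on simulated data in which few genes changed, whereas 84.5% of the genes tested were called here. That run cannot tell how TMM scaling behaves in these data. The tools were DESeq2 1.42.0, edgeR 4.0.16 and limma 3.58.1 in R 4.3.3, and matplotlib 3.10.9, numpy 2.4.6 and pandas 2.3.3 in Python 3.11.15.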

Additional observations from a re-analysis of the deposited data

How the results depend on the processing

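The direction of all 9 members was kept under every alternative in which they could be tested, and JAK2 was the only member to lose its call, apart from the fold threshold, under which JAK1, TYK2 and STAT3 lost theirs too. When each library had to hold 10 counts, FLT3 and SOCS1 were not tested and 3 members were called lower. Under the log2 fold threshold of 1.5, 1 member was higher, and 11 pathway genes were lower and 20 higher. With limma on FPKM at either pseudocount, 36 pathway genes were lower and 24 higher, against 30 and 37 by counts, and with library sizes alone 38 were lower and 33 higher. STAT2 turned to 0.048 with DESeq2, 0.048 with RLE factors, 0.11 with 10 counts required of each library and 0.17 with upper quartile factors, and ranged from −0.11 to 0.020 when 1 library was left out, while library sizes alone called it lower at −0.27. In FPKM, the STAT5B share was 2.92 points higher with THZ1 and the JAK2 share fell by 3.55 points. The JAK1 share difference ranged from −0.65 to 2.18 points when 1 library was left out. By counts per kilobase of merged exons in place of FPKM, 2 members changed rank with DMSO, STAT5B and JAK1, and 2 with THZ1, TYK2 and SOCS1. The cause of these differences was not tested.

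Upper quartile factors shifted the median gene by 0.19 and library sizes alone by −0.25. Same-numbered libraries did not deviate together (correlations of −0.00400, 0.000969 and 0.0206), so the numbers are not taken to pair the samples. With the replicate block, 4 members were lower, since JAK2 (−0.38) had an adjusted p of 0.0529 by edgeR, and 28 pathway genes were lower and 37 higher. Depth limited FLT3, the ligands and SOCS1 with DMSO, which had few counts.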
